A study of Homo sapiens with 8 samples.

Results

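The transcription factors examined here are the 7 genes SNAI1, SNAI2, TWIST1, TWIST2, ZEB1, ZEB2 and PRRX1, chosen by name from the 25369 genes of the count and FPKM tables. All 7 had a row, and 6 had enough reads to be among the 14570 genes tested. They were measured by RNA-seq in LX-2, an immortalized line of human hepatic stellate cells, the liver cells that turn into collagen-producing myofibroblasts in fibrosis. Wild-type LX-2 cells grown on tissue culture plastic were reseeded on a soft hydrogel of 2 kPa, close to normal liver, or a stiff hydrogel of 40 kPa, close to cirrhotic liver, and were harvested after 2 or 4 days. Each of the 4 conditions (D2 soft, D2 stiff, D4 soft and D4 stiff) had 2 libraries, 8 in all. No condition carried a further agent or genetic change, and LX-2 is a single line, so the libraries hold no variation between donors. The study describes the libraries of a condition as biological replicates from independent experiments. It does not say which conditions were grown together.

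SNAI1 (Snail) and SNAI2 (Slug) are zinc finger repressors, TWIST1 and TWIST2 are basic helix-loop-helix factors that work as dimers, ZEB1 and ZEB2 are large repressors with zinc fingers and a homeodomain, and PRRX1 is a homeodomain factor of mesenchyme. In epithelia they drive the epithelial-mesenchymal transition, in which E-cadherin and other junction genes are repressed through E-box sequences and mesenchymal genes come on. Stellate cells are mesenchymal by origin, and several of these factors are known from fibrotic tissue.

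The libraries held 19955975 to 27263935 counts, so that 3 counts, the upper limit that a count of 0 allows, correspond to 0.11 to 0.15 CPM (counts scaled to the size of the library). Of 13 markers of stellate and mesenchymal cells, 11 reached 10 counts in a library, with a summed level of 2930 to 6930 CPM. Nearly all of this sum came from VIM (1970 to 6360 CPM) and COL1A1 (504 to 1020 CPM), and every other marker of the list had at most 40.9 CPM. DES and LRAT, a marker of quiescent stellate cells, had at most 2 counts. Hepatocyte markers summed to at most 10.6 CPM and endothelial markers to at most 1.55 CPM. Epithelial markers summed to 32.3 to 71.2 CPM, nearly all from SOX9 and KRT7, and leukocyte markers to 89.8 to 127 CPM, nearly all from CD68, with CD163 and CD3E at 0. The D4 stiff libraries stood apart from each other. Transcripts of at least 6000 bases exceeded those under 2000 bases by 0.34 in library 1 and fell short of them in library 2, at -0.75 (median log2 deviation from the gene's mean), against -0.18 to 0.22 in the other 6 libraries. GC-rich minus GC-poor transcripts lay at 0.3 to 0.6 in the D2 libraries and at -0.62 to -0.08 in the D4 libraries. Values that touch these trends are given beside the results.

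On the genome (GRCh37), all 7 are protein-coding genes, and the position of SNAI2 is given with its values. SNAI1 lies at chr20:48599517-48605423 on the plus strand, TWIST1 at chr7:19060614-19157259 on the minus strand and TWIST2 at chr2:239756673-239832230 on the plus strand. ZEB1 lies at chr10:31607424-31818742 on the plus strand, ZEB2 at chr2:145121931-145278624 on the minus strand and PRRX1 at chr1:170631869-170708562 on the plus strand. The exon lengths behind the FPKM values divide the family. TWIST2 (1443 bases), TWIST1 (1666) and SNAI1 (1706) are short and GC-rich, with 59.9%, 57.2% and 58.4% GC. SNAI2 has 41.2% GC over 2109 bases. ZEB1 (6389 bases, 38.4% GC) and ZEB2 (11656 bases, 39.1% GC) are long and GC-poor. The strand setting of the counting is not given in the sources used here. Exons of ZEB1 share 396 bases with the antisense gene ZEB1-AS1, which itself had 46 to 95 counts, and exons of ZEB2 share 1299 bases with ZEB2-AS1, which had 0 to 2 counts. Exons of SNAI2 share 121 bases and those of TWIST1 141 bases with noncoding RNA genes on the opposite strand that had no row. Whether strand separated the reads of these shared stretches is therefore not known. Exons of ZEB2 also share 2966 bases with the pseudogene AC009951.1 on the same strand, which strand cannot separate and which had no row.

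Promoters of 4 genes are shown because TWIST2 and ZEB2 moved furthest apart with culture time, ZEB1 did not pass the test, and OCLN (occludin, a tight junction protein) is a junction gene that rose. Each is the 250 bases before an annotated start, from RefSeq on GRCh38.p14, which is not the build of the count files. Capitals mark the E-box CANNTG, read the same on both strands, of which CACCTG and CAGGTG are the forms known to be bound by SNAI and ZEB repressors. The ZEB1 window, at chr10:31318966-31319215 on the plus strand, belongs to the third of 7 annotated starts. It holds more of these forms than the window of any other ZEB1 start. The windows of the other genes are chr2:238847835-238848084 (plus strand) for TWIST2, chr2:144520120-144520369 (minus strand) for ZEB2 and chr5:69492297-69492546 (plus strand), the first of 2 starts, for OCLN.
TWIST2: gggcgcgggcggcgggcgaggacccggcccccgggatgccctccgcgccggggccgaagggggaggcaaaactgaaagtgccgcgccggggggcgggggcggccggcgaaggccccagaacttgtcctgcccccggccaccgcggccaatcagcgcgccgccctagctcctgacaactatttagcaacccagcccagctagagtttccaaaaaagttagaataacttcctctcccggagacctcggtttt
ZEB2: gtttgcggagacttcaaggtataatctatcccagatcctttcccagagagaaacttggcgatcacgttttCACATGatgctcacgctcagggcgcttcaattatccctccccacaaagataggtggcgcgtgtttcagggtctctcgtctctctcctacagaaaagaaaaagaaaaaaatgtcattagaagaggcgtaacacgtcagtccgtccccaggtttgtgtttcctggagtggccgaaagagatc
ZEB1: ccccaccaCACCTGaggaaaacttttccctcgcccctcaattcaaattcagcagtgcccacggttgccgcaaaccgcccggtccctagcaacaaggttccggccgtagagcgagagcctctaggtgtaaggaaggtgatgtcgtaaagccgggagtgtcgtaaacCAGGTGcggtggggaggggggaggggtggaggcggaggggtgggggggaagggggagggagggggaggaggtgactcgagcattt
OCLN: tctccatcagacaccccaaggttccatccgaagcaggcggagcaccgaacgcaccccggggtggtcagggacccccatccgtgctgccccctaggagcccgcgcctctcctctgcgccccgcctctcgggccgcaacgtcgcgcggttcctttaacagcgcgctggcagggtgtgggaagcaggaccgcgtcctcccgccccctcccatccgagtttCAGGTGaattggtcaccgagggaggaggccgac

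Of 35116 such windows of the annotation, 61.8% hold a CANNTG and 17.5% a CACCTG or CAGGTG. The TWIST2 window holds neither. The ZEB2 window holds 1 CANNTG at -180 (counted from the start) that is not of the repressor form. The ZEB1 window shown holds a CACCTG at -242 and a CAGGTG at -85, and among the other 6 ZEB1 windows only the first holds one of these forms, a CAGGTG at -57. The OCLN window holds a CAGGTG at -33, and the window of its second start holds one at -133. The windows of PRRX1 and CLDN1 hold no CANNTG. These are matches of letters and not sites of binding.

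At 2 days the order of the members was the same on both matrices. Mean FPKM (fragments per kilobase of transcript, here scaled by size factors) was highest for TWIST2, at 32.9 ± 6.9 (SD, n = 2) on the soft and 29.6 ± 0.0593 (n = 2) on the stiff matrix. SNAI2 followed at 21.8 ± 0.802 and 23.6 ± 0.522, then TWIST1 at 13.1 ± 2.16 and 10.8 ± 0.606. ZEB1, at 6.39 ± 0.252 and 7.4 ± 0.96, exceeded ZEB2, at 3.31 ± 0.109 and 3.85 ± 0.129. SNAI1 had 1.64 ± 0.0444 and 1.61 ± 0.33. The libraries of neighbours in this order did not overlap in either condition. PRRX1 had 2 and 3 counts on the soft matrix at 2 days and 0 counts in the other 6 libraries, so no change of it could be measured at this depth.

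At 4 days SNAI2 led on both matrices, at 15.5 ± 1.33 FPKM on the soft and 13.0 ± 0.577 FPKM on the stiff matrix, and TWIST2 came next at 9.32 ± 0.723 and 10.9 ± 0.624. TWIST1 had 7.02 ± 0.0825 and 6.72 ± 0.571. The libraries of ZEB1 and ZEB2 overlapped on both matrices, and on the stiff matrix those of TWIST1 and ZEB2 overlapped as well. SNAI1 stayed below them at 1.03 ± 0.414 and 0.659 ± 0.245 FPKM.

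**Figure D1:**
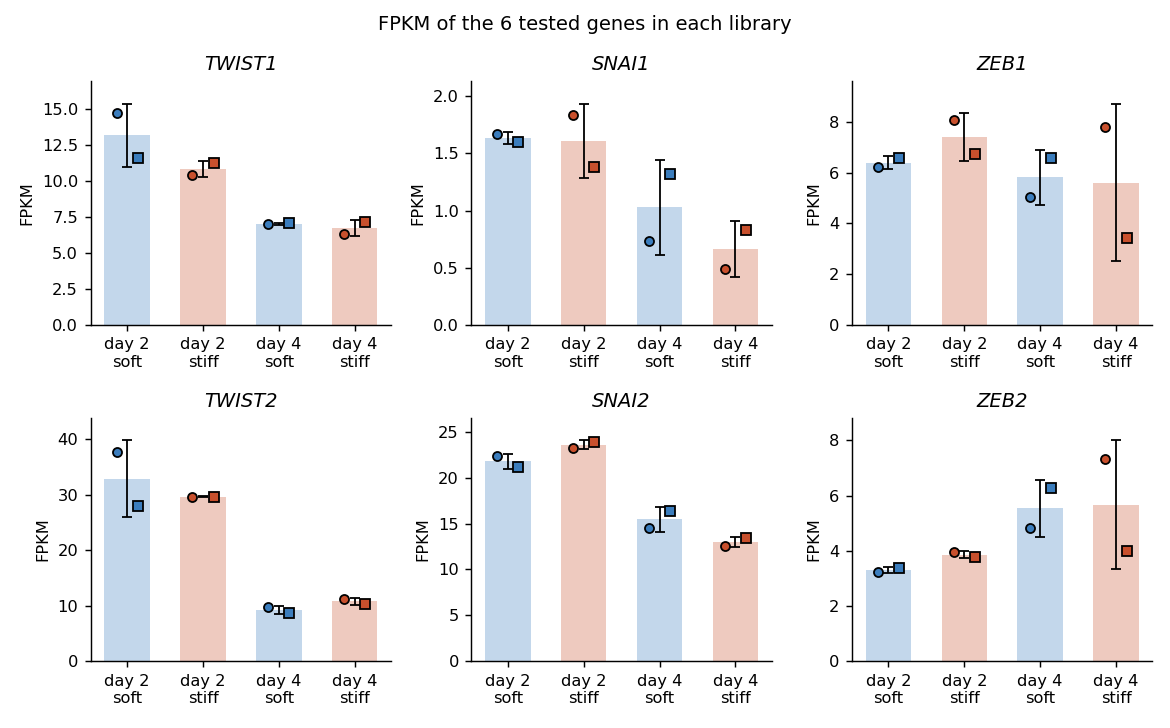
FPKM of 6 genes (vertical axes, each starting at 0) in the 4 conditions, soft in blue and stiff in red. Circles are library 1, squares library 2, bars the mean and whiskers the SD of 2 libraries. TWIST1, TWIST2 and SNAI2 sit lower in all 4 libraries of day 4 than in those of day 2, and ZEB1 and ZEB2 spread widely between the D4 stiff libraries.

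The first comparison asked whether the factors respond to matrix stiffness. At 2 days none of the 6 genes tested was called between stiff and soft by edgeR's quasi-likelihood test (adjusted p under 0.05 by the Benjamini-Hochberg method), where 0.0% of all tested genes were called. At an unadjusted p-value under 0.05 the counts were 0 members and 411 genes. At 4 days 0 members were called, against 0.247% of all tested genes, and averaged over both days 0 members, against 0.426%. The unadjusted count was again 0 members, among 1010 and 1122 genes. DESeq2 also called 0 members in each of these comparisons. The median log2 fold change of the 6 members was 0.05 at 2 days and -0.06 at 4 days, beside 0.01 and 0.02 over all tested genes.

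How large a stiffness effect these libraries leave room for differs between members. For SNAI2, the best measured member, the average log2 fold change of stiff over soft was -0.07, with a 95% interval from -0.29 to 0.15. TWIST2 had 0.03 (-0.25 to 0.31) and TWIST1 -0.17 (-0.45 to 0.1). ZEB1, at 0.08 (-0.48 to 0.63), ZEB2, at 0.12 (-0.31 to 0.56), and above all SNAI1, at -0.34 (-0.96 to 0.27), were measured less closely. An interval that holds 0 does not show that expression was equal.

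SNAI2 had stiffness values of opposite direction at the 2 times, a change that was not called. It had 47.2 and 44.7 CPM on the soft matrix and 49.0 and 50.4 CPM on the stiff matrix at 2 days, where stiff was the higher. At 4 days it had 30.8 and 35.3 CPM on the soft matrix and 26.7 and 28.6 CPM on the stiff matrix, where stiff was the lower. The libraries did not overlap at either day, as for 48.2% of all tested genes at 2 days and 25.7% at 4 days. The share of genes with opposite directions and no overlap at both days was not counted. The sign also turned in TWIST2 (-0.15 at 2 days, 0.22 at 4 days, a change of 0.37 ± 0.243, SE) and ZEB1 (0.21 and -0.06). The change of the stiffness effect of SNAI2 between days was -0.37 ± 0.188 (SE) and was not called, with an adjusted p of 1.0 by edgeR. No member was called for this change, and 0.0% of all tested genes were, with 0 members and 284 genes at an unadjusted p-value under 0.05.

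The ZEB genes at 4 days depended on which stiff library was read. ZEB1 had 32.4 and 43.0 CPM on the soft matrix and 50.2 and 22.1 CPM in D4 stiff libraries 1 and 2. ZEB2 had 56.4 and 74.5 CPM on the soft matrix and 85.8 and 47.4 CPM on the stiff matrix. In both genes library 1 lay above and library 2 below the soft libraries. With library 1 left out, edgeR gave -0.76 for ZEB1 (adjusted p = 0.00285) and -0.46 for ZEB2 (adjusted p = 0.0312), and called 2 of the 6 members in a fit that called 31.1% of all genes. With library 2 left out it gave 0.42 for ZEB1 (adjusted p = 0.153) and 0.40 for ZEB2 (adjusted p = 0.144), with 3.63% of all genes called. Such a fit has 1 D4 stiff library, which is assumed to vary like the libraries of the other conditions, and the pair that varied most no longer adds to the estimate of the spread. The change of the stiffness effect between days was likewise called without library 1 in ZEB1, at -0.97 (adjusted p = 0.00552), and in ZEB2, at -0.67 (adjusted p = 0.0228), again 2 of 6 members where 20.9% of all genes were called. Long transcripts as a whole were high in library 1 and low in library 2, as given above, and their part in these values was not tested.

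**Figure D2:**
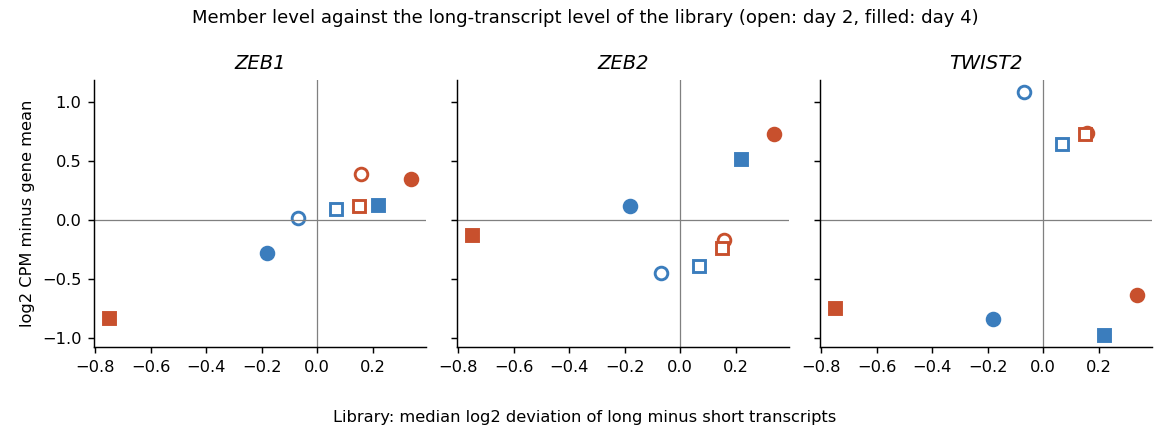
Log2 CPM minus the gene's mean (vertical axis) of ZEB1, ZEB2 and TWIST2 against the median log2 deviation of transcripts of at least 6000 bases minus that of transcripts under 2000 bases in the same library (horizontal axis). Each point is a library, open at 2 days and filled at 4 days, blue for soft, red for stiff, circles for library 1 and squares for library 2. ZEB1 is lowest, at -0.83, in the library with the lowest long-transcript level, at -0.75, whereas TWIST2 divides by day.

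The second comparison was of 4 days with 2 days of culture. Averaged over both matrices, 4 of the 6 genes tested were lower at 4 days (SNAI1, SNAI2, TWIST1 and TWIST2) and ZEB2 was higher, while ZEB1 did not pass the test. In this comparison 46.2% of all tested genes were called, 21.9% lower and 24.3% higher. The median log2 fold change was -0.72 over the 6 members and 0.02 over all tested genes. On the soft matrix alone 3 members were lower (TWIST1, TWIST2 and SNAI2), where 27.4% of all tested genes were called and 13.3% were lower. On the stiff matrix alone 4 members were lower (these and SNAI1), where 27.6% were called and 13.7% were lower. Leaving out a library put between 3 and 6 members past the threshold in the average, in fits that called 28.8% to 62.8% of all genes. On the soft matrix it put 1 to 4 members past it (2.32% to 52.9% of all genes), and on the stiff matrix 1 to 5 (3.14% to 52.1%).

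TWIST2 fell most. On the soft matrix it had 54.6 and 40.4 CPM at 2 days and 14.3 and 13.0 CPM at 4 days. On the stiff matrix the values were 42.9 and 42.7 CPM at 2 days and 16.5 and 15.3 CPM at 4 days. All 4 libraries of day 4 lay below all 4 of day 2, as for 22.4% of all tested genes. The average log2 fold change was -1.62 ± 0.124 (SE; adjusted p = 0.000145 by edgeR), a level 3.07-fold lower, and 3.32% of all tested genes had a lower value. TWIST2 was the member called with at least a 2-fold fall in the average, where 7.92% of all tested genes were. The fall was -1.80 ± 0.176 on the soft and -1.43 ± 0.175 on the stiff matrix, and the call remained under every library left out in each of the 3 comparisons of days.

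TWIST1, its paralog, fell less. It had 24.5 and 19.3 CPM at 2 days on the soft matrix and 11.7 and 12 CPM at 4 days. On the stiff matrix it went from 17.3 and 18.7 CPM to 10.6 and 12 CPM. The groups of days did not overlap, and 22.4% of all tested genes lay lower at 4 days in the same way. The average change was -0.78 ± 0.119 (adjusted p = 0.00165 by edgeR), 1.72-fold lower. On the stiff matrix, the call, at -0.67, was lost without D2 stiff library 1 (adjusted p = 0.104) or 2 (adjusted p = 0.164). On the soft matrix it was lost without D2 soft library 1 (adjusted p = 0.0958), D4 soft library 1 (0.0687) or D4 soft library 2 (0.0609).

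SNAI2 lies at chr8:49830157-49834299 on the minus strand of GRCh37. It fell from 44.7 to 50.4 CPM in the 4 libraries of day 2 to 26.7 to 35.3 CPM in those of day 4. There was no overlap, as for 22.4% of all tested genes. The average change was -0.66 ± 0.0946 (adjusted p = 0.00126 by edgeR), 1.58-fold lower. On the stiff matrix it was -0.85 (adjusted p = 0.00524) and on the soft matrix -0.47 (adjusted p = 0.0344). The soft call was lost without any single library of the D2 or D4 soft condition or of the D2 stiff condition, with adjusted p-values from 0.0885 to 0.202, and the stiff call without D2 stiff library 1 (0.0502) or 2 (0.0671). In the average it remained under every library left out.

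SNAI1 is the member with the fewest reads after PRRX1. It had 81 and 76 counts on the soft and 75 and 56 on the stiff matrix at 2 days, against 27 and 51 on the soft and 17 and 25 on the stiff matrix at 4 days. Every library of day 4 lay below every library of day 2 in CPM, as for 22.4% of all tested genes. The separation was narrow, at 2.3 CPM (51 counts) in D4 soft library 2 against 2.35 CPM (56 counts) in D2 stiff library 2. The average change was -0.97 ± 0.265 (adjusted p = 0.0194 by edgeR), 1.95-fold lower. This call was lost without D2 soft library 1 (adjusted p = 0.0707) or 2 (0.0592), D2 stiff library 1 (0.0774) or D4 soft library 1 (0.0536). The change on the stiff matrix, -1.28 (adjusted p = 0.0437), was past the threshold only without D4 stiff library 2, D4 soft library 1 or D4 soft library 2 among the 8 fits with a library left out. On the soft matrix SNAI1 had -0.65 ± 0.36 and was not called.

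ZEB2 was the member that rose. It had 37.8 and 39.5 CPM on the soft and 46.1 and 43.8 CPM on the stiff matrix at 2 days, and every library of day 4 lay above these, down to 47.4 CPM in D4 stiff library 2, a pattern that 24.0% of all tested genes showed. The average change was 0.66 ± 0.189 (adjusted p = 0.0221 by edgeR), 1.58-fold higher. This call was lost without any single D2 library (adjusted p from 0.0671 to 0.0871) or D4 soft library 2 (0.0775). On the soft matrix the change was 0.76 (adjusted p = 0.0696) and on the stiff matrix 0.57 (adjusted p = 0.147). On the stiff matrix it was 0.08 without D4 stiff library 1 and 0.93 (adjusted p = 5.5e-05) without D4 stiff library 2, and on the soft matrix it was called without either of them.

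ZEB1 had 39.8, 42, 51.7 and 42.9 CPM in the libraries of day 2 and 32.4, 43.0, 50.2 and 22.1 CPM in those of day 4, which overlap. The average change was -0.25 ± 0.24 (adjusted p = 0.42 by edgeR). Without D4 stiff library 1 it was -0.62 (adjusted p = 5.32e-05), in a fit that called 62.8% of all genes and took the spread of the remaining D4 stiff library from the other conditions. Without D4 stiff library 2 it was -0.03 (adjusted p = 0.806), where 61.3% were called.

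**Figure D3:**
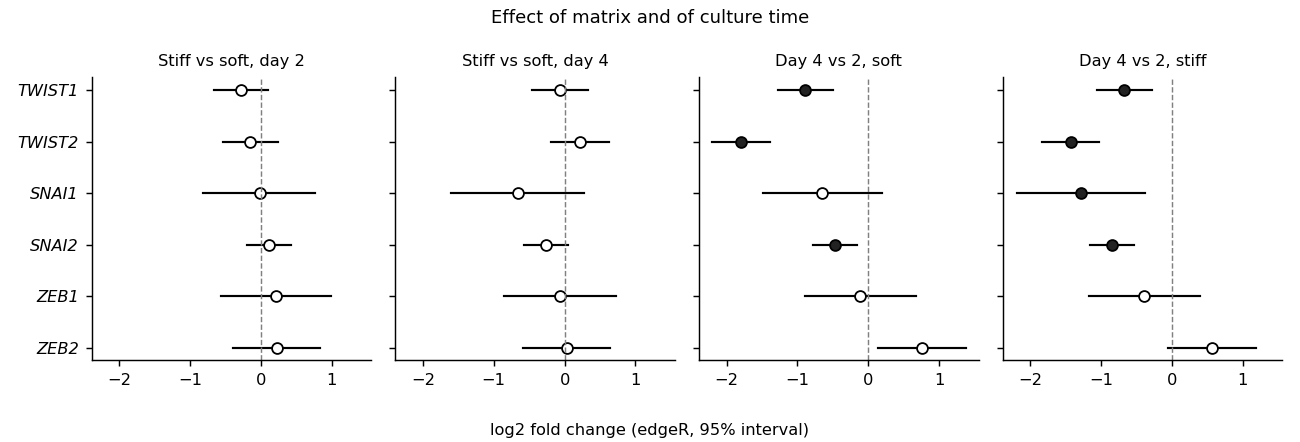
Log2 fold change (horizontal axis) of 6 genes in 4 comparisons, with 95% intervals from edgeR as lines. Filled points are called at an adjusted p-value under 0.05. All intervals of stiff against soft hold 0, and the called changes, all between days, lie between -1.80 and -0.47.

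The time effect followed transcript composition over all genes, and the members have to be read beside it. Between 2 and 4 days the median log2 change of GC-rich transcripts (at least 55% GC) was -0.38 and that of GC-poor transcripts (under 42%) was 0.43. Short and GC-rich transcripts, the class of TWIST1, TWIST2 and SNAI1, had a median of -0.25, and long and GC-poor transcripts, the class of ZEB1 and ZEB2, had 0.28. TWIST1, TWIST2 and SNAI1 lay below the median of their class and ZEB2 above that of its class. SNAI2, which is GC-poor, fell against a class median above 0. With offsets for length and GC in each library, an alternative added after the data were seen, the average changes were -1.30 for TWIST2, -1.07 for SNAI2, -0.72 for SNAI1, -0.58 for TWIST1, -0.58 for ZEB1 and 0.54 for ZEB2, and all 6 were called, as were 48.3% of the genes in that fit. Whether composition has a part in the changes beyond this was not tested.

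Ratios of paralogs within a library cancel any scaling of the library. The TWIST and the ZEB pair each share a similar GC content, but ZEB2 (11656 bases) is longer than ZEB1 (6389 bases). A ratio need not cancel a trend with length or GC, and the part of such trends was not tested. The pairs were chosen after the values had been seen. TWIST2 over TWIST1 in FPKM was 2.57 and 2.41 on the soft and 2.86 and 2.63 on the stiff matrix at 2 days, and 1.41 and 1.25 on the soft and 1.79 and 1.46 on the stiff matrix at 4 days. The means were 2.62 ± 0.184 (SD, n = 4) at 2 days and 1.48 ± 0.228 (n = 4) at 4 days, with p = 0.0286 in an exact two-sided permutation test, the smallest p that 4 against 4 libraries can give, and 0.0858 after Benjamini-Hochberg adjustment over 6 comparisons. ZEB2 over ZEB1 was 0.488 to 0.56 in the libraries of day 2 and 0.937 to 1.18 in those of day 4, with means of 0.521 ± 0.0294 and 1.0 ± 0.116 and the same exact p of 0.0286 (0.0858 adjusted). The D4 stiff libraries, far apart in ZEB1 and ZEB2 levels, had ratios of 0.937 and 1.18. SNAI2 over SNAI1 had means of 14.1 ± 2.19 at 2 days and 18.6 ± 5.74 at 4 days (exact permutation p = 0.257, n = 4 each). Between matrices, with both days pooled, the exact permutation p-values of the 3 ratios were 0.514, 0.771 and 0.343, with n = 4 each. Libraries were permuted without regard to day, so differences between days widen the spread in these tests. They therefore cannot decide on a difference between matrices within a day. Within each day both stiff libraries had a higher TWIST2 to TWIST1 ratio than both soft libraries, which was not tested. The other ratios overlapped between matrices at each day.

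**Figure D4:**
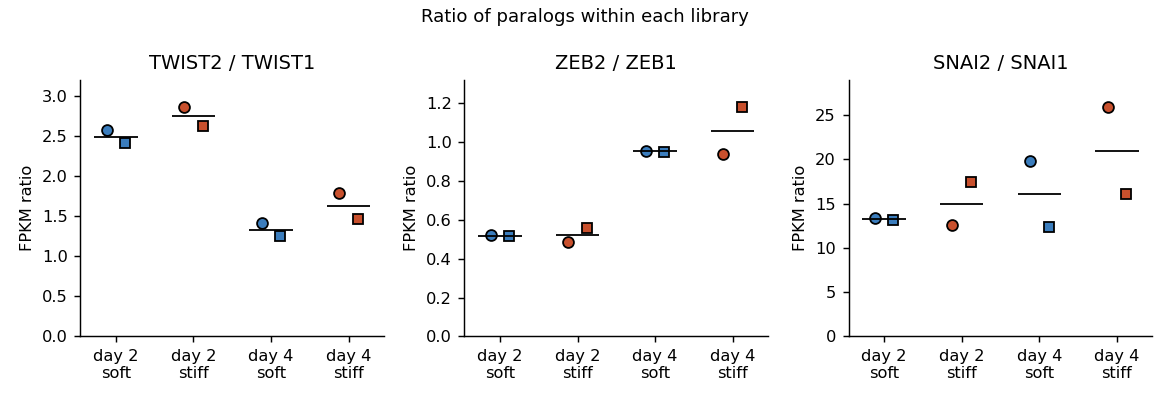
FPKM ratio (vertical axes, starting at 0) of TWIST2 to TWIST1, ZEB2 to ZEB1 and SNAI2 to SNAI1 in each library, soft in blue and stiff in red, circles for library 1 and squares for library 2, with the mean of 2 libraries as a line. The first ratio is lower and the second higher in all 4 libraries of day 4 than in those of day 2.

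Genes that work with the members were read from lists. List counts at 4 days are from the average over matrices, where 24.3% of all tested genes were higher and 21.9% lower. Among the dimer partners of TWIST and the ID proteins, which keep basic helix-loop-helix factors from DNA, 4 of 7 tested were lower at 4 days in the average over matrices and 0 were higher. TCF3, which encodes the E-proteins E12 and E47, went from 195, 171, 187 and 183 CPM at 2 days to 94.1, 89.6, 92.8 and 102 CPM at 4 days (-0.96 ± 0.0928, adjusted p = 0.000297 by edgeR). ID1 (-0.78), ID3 (-0.76) and ID2 (-0.53) were lower as well, whereas the partner TCF4 had -0.10 (adjusted p = 0.665). On the soft matrix alone ID1 had -0.63 and ID2 -0.20, and neither was called. The list median was -0.53, beside 0.02 over all tested genes. Of 10 other mesenchymal transcription factors tested, 4 rose and 3 fell. SOX9, a factor of cartilage and bile ducts, went from 18.7 to 23.6 CPM in the libraries of day 2 to 40.8 to 55.1 CPM in those of day 4 (1.16, adjusted p = 0.000181), and LEF1, SOX4 and TCF21 rose. FOXC2 (-1.37), HMGA2 (-0.94) and GSC fell.

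Of 14 corepressors and cofactors through which SNAI and ZEB proteins silence genes, 4 rose and 1 fell at 4 days. Over all tested genes 24.3% rose and 21.9% fell. HDAC2, a histone deacetylase, rose by 0.81 (adjusted p = 0.00137), and SUZ12 (0.62) and EZH2 (0.37) of the Polycomb repressive complex rose, as did AJUBA, whereas SMARCA4 (BRG1) fell by 0.44. Of 12 genes that set the stability of these proteins, 6 rose and 1 fell. MDM2, a ubiquitin ligase best known for p53, rose from 18.2 to 23.9 CPM in the D2 libraries to 55.1 to 63.6 CPM in the D4 libraries (1.44 ± 0.104, adjusted p = 0.000131). GSK3B, the kinase that marks SNAI1 for degradation, rose by 0.61, and the ubiquitin ligase genes FBXO45, FBXW7 and FBXL5 rose, while FBXL14 fell by 1.16. The medians were -0.06 for the corepressors and 0.25 for the stability genes, beside 0.02 over all tested genes. No gene of these 4 lists was called between matrices. Over all tested genes 0.0% were called at 2 days, 0.247% at 4 days and 0.426% averaged over both days. A gene not called was not shown to be equal. ID2 had -1.03 for stiff against soft at 4 days (adjusted p = 0.101 by edgeR). Averaged over days it had -0.71 (95% interval -1.0 to -0.42, adjusted p = 0.0783), and 6 of 7 genes of its list were below 0.

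E-cadherin, the classical target of these repressors, was close to absent, with 0 or 1 count of CDH1 in every library. EPCAM had at most 6 counts, ESRP1 at most 1 and GRHL2 had 0, and 17 of 28 epithelial target genes had enough reads to test. Of these, 4 rose and 2 fell at 4 days, with a median of -0.08. Over all tested genes 24.3% rose and 21.9% fell, with a median of 0.02. CLDN1, a claudin of tight junctions, had 1.58 and 1.66 CPM on the soft and 0.924 and 0.754 CPM on the stiff matrix at 2 days. At 4 days it had 6.3 and 6.81 CPM on the soft and 3.09 and 3.34 CPM on the stiff matrix. The change between days was 1.97 ± 0.16 (adjusted p = 0.000177 by edgeR). Stiff against soft, averaged over both days, CLDN1 had -0.99 (adjusted p = 0.0572 by edgeR). In that comparison 0 of the 17 genes were called, against 0.426% of all tested genes. OCLN, whose start carries the CAGGTG shown above, rose from 8.84 to 10.8 CPM in the libraries of day 2 to 25.9 to 28.3 CPM in those of day 4 (1.47 ± 0.104, adjusted p = 0.000131). The desmosome genes PKP2 (1.5) and JUP rose, and LLGL2 and MUC1 fell. Epithelial markers as a list summed to 32.3 to 37 CPM at 2 days and 51.1 to 71.2 CPM at 4 days. Of this sum SOX9, also counted above among other mesenchymal factors, had 18.7 to 23.6 CPM at 2 days and 40.8 to 55.1 CPM at 4 days. KRT7 had 9.38 to 19.1 CPM over all libraries, and KRT19 and KRT23 at most 0.586 and 0.691 CPM. CDH1 and EPCAM, which define epithelial cells, were at or near 0 throughout.

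Of 22 mesenchymal target genes tested, 10 rose and 3 fell at 4 days, with a median of 0.31. Over all tested genes 24.3% rose and 21.9% fell, with a median of 0.02. THY1, a surface protein of fibroblasts, rose from 17.5 to 25.5 CPM to 66.0 to 90.7 CPM (1.78 ± 0.128, adjusted p = 0.000131 by edgeR). VIM, which encodes the intermediate filament vimentin, rose by 1.04 (adjusted p = 0.00183), COL5A2 by 0.95, ACTA2 (smooth muscle actin) by 0.91 and CDH2 (N-cadherin) by 0.32. COL3A1, SPARC, TAGLN, CDH11 and WNT5A rose too. COL1A1 and MMP2 were among those that fell. MMP2 changed by -1.57 on the stiff matrix (adjusted p = 0.00588 by edgeR) and by -0.25 on the soft matrix (adjusted p = 0.416), and its libraries overlapped between days. Between matrices 2 genes of this list were called at 4 days, both lower on the stiff matrix, where 0.247% of all tested genes were called. MMP9 had 20.9 and 17.4 CPM on the soft and 1.96 and 2.42 CPM on the stiff matrix (-3.13, adjusted p = 0.0151 by edgeR), and MMP2 had 9.01 and 10.6 CPM against 1.72 and 1.73 CPM (-2.50, adjusted p = 0.0151). Both encode gelatinases. Both calls were lost without any single soft library of either day, in fits that called 0 genes in all (adjusted p up to 0.126), with log2 fold changes between -3.27 and -2.97 for MMP9 and between -2.61 and -2.38 for MMP2 over the 8 fits. Between days, the averaged calls of SOX4, ID2, AJUBA, EZH2, SUZ12, GSK3B, FBXW7, FBXL5, FBXL14, JUP, MUC1, CDH2, CDH11, COL1A1, COL3A1, TAGLN and WNT5A were lost in at least 1 of these 8 fits.

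**Figure D5:**
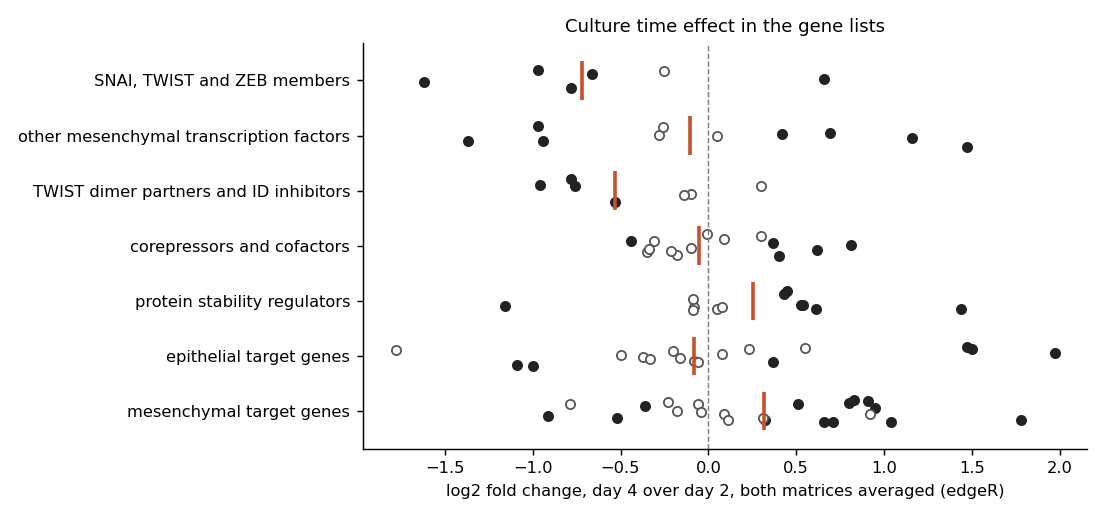
Log2 fold change of day 4 over day 2, averaged over both matrices (horizontal axis), of each tested gene of 7 lists. Filled points are called by edgeR at an adjusted p-value under 0.05, open points are not, and red lines are list medians, the lowest being that of the SNAI, TWIST and ZEB members at -0.72.

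The genes nearest to each member were named by the smallest root mean square difference of mean-centred log2 CPM over the 8 libraries, among 9966 genes. For ZEB2 they were LIFR, a cytokine receptor gene (0.034), and CPS1, a urea cycle enzyme gene (0.064). For ZEB1 they were TAOK1 (0.071) and CDK8 (0.074), both kinase genes. TWIST1 was nearest to CCDC184 (0.066) and NCKIPSD (0.069), SNAI2 to NSMF (0.068) and PLCD3 (0.078), and TWIST2 to TMEM8A (0.129) and CAPN15 (0.136). SNAI1, the least abundant, had no gene nearer than PDE2A (0.264) and DOCK3 (0.266).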

How the data were processed

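RNA-seq was available for 8 libraries. The authors trimmed reads with TrimGalore, mapped them to hg19 with STAR 2.7.1a and ran htseq-count to get the raw read counts of each gene that they deposited. The annotation and strand setting are not given in the sources used here. The deposited FPKM are scaled by size factors, and the gene lengths they imply were whole numbers (within 0.01 bases) in 100% of 20029 genes. Coordinates came from a GRCh37 annotation.

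Counts were fitted in R 4.3.3 with edgeR 4.0.16 (filterByExpr, TMM, quasi-likelihood, 4 conditions, all 8 libraries), with Benjamini-Hochberg adjustment over 14570 genes and calls at an adjusted p-value under 0.05. limma 3.58.1 and DESeq2 1.42.0 served as alternatives. Ratios were tested by exact permutation in SciPy 1.17.1. In simulated counts of 14570 genes, edgeR recovered 192 of 200 genes changed by 2 (log2) in the averaged comparison of days, with 18 false calls. That change exceeds the averaged change of every member, and the simulated counts held no length or GC trend. How often changes of the members' size would be found was therefore not measured. Members and gene lists were chosen with earlier results of these data known. Besides members, CDH1, CDH2, VIM, TCF4 and ID1 to ID3, up to 3 genes per list and comparison with the largest fold changes among those called (from log2 CPM of 1) and the 2 nearest genes per member (from log2 CPM of 3) were named by rule. The other list genes in the text were chosen after their values were seen. A gene of the mesenchymal list is counted but not reported by name. The labels give no batch, so culture time and the processing of each day's libraries cannot be told apart.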

Additional observations from a re-analysis of the deposited data

Results flagged for a closer look

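SNAI2 was picked out because its libraries moved in opposite directions with stiffness at the 2 times, up at 2 days and down at 4 days, without overlap at either. The stiff effect was 0.11 at 2 days and -0.26 at 4 days on the log2 scale, a difference of -0.37 ± 0.188 (SE; adjusted p = 1.0 in edgeR), which did not pass the threshold. The difference was -0.31 without D4 stiff library 1 and -0.40 without library 2.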

How the results depend on the processing

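The number of members called fell in the comparison of days on the stiff matrix, from 4 to 0 when only its own 4 libraries were fitted, where 0 genes of all were called. It fell to 2 with voom quality weights, where 13.9% of all genes were called, an alternative added after the data were seen. A 2-fold minimum left 1 member on soft, 2 on stiff and 1 in the average, where 7.92% of all tested genes were called at least 2-fold lower. Leaving out single libraries gave 1 to 4 members on soft, 1 to 5 on stiff, 3 to 6 in the average, 0 to 2 for stiffness at 4 days and 0 to 2 for the change of the stiffness effect, in fits that called 2.32% to 52.9%, 3.14% to 52.1%, 28.8% to 62.8%, 0.0% to 31.1% and 0.0% to 20.9% of all genes. The 2 members for stiffness at 4 days and for its change came from the fits with the most calls, those without D4 stiff library 1. The causes were not tested.

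Replicate numbers did not pair the libraries. Correlations of same-numbered deviations lay between -0.49 and 0.0773. With the replicate number as a block, 2 members were called on the stiff matrix (TWIST2 and SNAI2), 2 on the soft matrix, where SNAI2 had an adjusted p of 0.0755, and 5 in the average. That fit called 17.5% of all genes on the stiff matrix, 18.0% on the soft matrix and 39.3% in the average. A crossed pairing, with the D4 stiff libraries swapped, called 4 members on each matrix and 5 in the average. Of all genes it called 31.2% on each matrix and 49.9% in the average. It was added after the data were seen.

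Signs turned for values that were not called in the fit reported, the largest being ZEB1 between days on the stiff matrix (-0.39) and the change of its stiffness effect (-0.27). For stiff against soft these were SNAI1 at 2 days (0.08 with length and GC offsets), ZEB1 at 4 days (0.03 with these offsets) and ZEB2 at 4 days (-0.07 without scaling factors, -0.01 with limma on log2(FPKM + 1) with or without a filter, -0.02 with 0.1 in place of 1 and -0.02 with voom). Averaged over days they were TWIST2 (-0.06) and ZEB1 (-0.00271) without scaling factors. The change of the stiffness effect of ZEB2 was 0.04 with the offsets. With single libraries left out, stiffness effects ranged from -0.25 to 0.18 (SNAI1) and -0.35 to 0.09 (TWIST2) at 2 days. At 4 days they ranged from -0.15 to 0.03 (TWIST1), -0.76 to 0.42 (ZEB1) and -0.46 to 0.40 (ZEB2). Averaged they ranged from -0.07 to 0.15 (TWIST2), -0.28 to 0.31 (ZEB1) and -0.12 to 0.30 (ZEB2). The change between days ranged from -0.97 to 0.22 (ZEB1) and -0.67 to 0.19 (ZEB2), and ZEB1 between days from -0.34 to 0.05 on the soft and -1.10 to 0.08 on the stiff matrix.

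Calls over all genes differed more. For stiffness at 2 days 0 genes were called by edgeR, 28 by DESeq2, 187 with voom weights and 667 with the 2-day libraries alone. At 4 days the counts were 36, 164, 4 and, with the 4-day libraries alone, 0, and leaving out a library gave 0 (any soft library), 20 (either D2 stiff library), 545 (D4 stiff library 2) or 4676 (D4 stiff library 1). Without scaling factors the averaged comparison of days gave 2630 higher and 3732 lower genes, in place of 3545 and 3192. SNAI1 in the average was not called with voom (adjusted p = 0.0636) or limma on unfiltered FPKM (0.0611), nor ZEB2 with that limma fit (0.148) or without scaling factors (0.0656). With 2 libraries a condition and few reads of SNAI1 and PRRX1, effects of moderate size could have been missed.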
